A study of Mus musculus with 9 samples.

Results

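The gelsolin family was taken as the 7 genes Gsn, Scin, Capg, Vil1, Avil, Svil and Flii, matched from Ensembl identifier to symbol. They were listed by name as gelsolin superfamily genes, and the related villin-like gene (Vill) was left out. All 7 were found among the 54232 genes counted in the cochlear ducts of mouse embryos. RNA was measured by bulk sequencing at embryonic day 14.5 in 9 libraries, and each library held the dissected ducts of both ears of 1 embryo, with 3 embryos per genotype. The embryos were littermates on an FVB/NJ background from matings of heterozygote parents, and their genotypes were wild type (WT), heterozygote (Prdm16 cGT/+) and null (Prdm16 cGT/cGT) for a gene trap allele of the transcriptional regulator Prdm16. The comparison between genotypes asks which transcripts of the duct depend on Prdm16, a gene expressed in Kölliker's organ, the transient epithelium on the medial side of the duct.

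Proteins of this family are built from repeats of the gelsolin domain, which binds actin, in most members under the control of calcium and phosphoinositides. Gelsolin severs actin filaments and then caps the fast-growing end, and filament severing of this kind remodels the cell cortex during epithelial morphogenesis. Mouse Gsn encodes a cytoplasmic and a secreted form, which are made from alternative starts of the same gene.

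Because Gsn was the member whose RNA changed, the sequence ahead of its annotated starts is shown first. Gsn (ENSMUSG00000026879) spans chr2:35256380-35307892 on the plus strand of mm10, and GENCODE lists 7 transcripts, of which 6 are coding. Gsn-205 and 4 other coding transcripts begin at the upstream end of the gene, whereas Gsn-201 begins inside it, at chr2:35282380. The RefSeq promoter table (GRCm38.p6) gave 8 windows for 6 of the 7 members, with none for Svil, and 3 of them belonged to Gsn. The 250 bases ahead of the upstream and the downstream RefSeq start are printed 5′ to 3′ on the plus strand, at chr2:35256109-35256358 and chr2:35282130-35282379, with capitals for matches to GGGCGG on either strand.
Gsn upstream start: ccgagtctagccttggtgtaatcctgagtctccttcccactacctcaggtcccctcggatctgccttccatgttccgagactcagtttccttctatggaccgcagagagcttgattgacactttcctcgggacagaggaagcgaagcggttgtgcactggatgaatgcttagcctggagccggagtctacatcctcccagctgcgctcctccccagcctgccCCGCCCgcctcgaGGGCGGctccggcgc
Gsn downstream start: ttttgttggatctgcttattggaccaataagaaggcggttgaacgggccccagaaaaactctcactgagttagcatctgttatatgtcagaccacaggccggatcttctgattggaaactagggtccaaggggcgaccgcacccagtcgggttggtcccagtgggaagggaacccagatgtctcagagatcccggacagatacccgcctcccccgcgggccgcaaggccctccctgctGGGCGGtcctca

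The upstream window held 15 CpG dinucleotides and 60.8% G and C, and the downstream window 12 CpG and 57.6%, against medians of 6 CpG and 52.4% over all 32851 windows of the table. GGGCGG occurred 2 times in the upstream window and 1 time in the downstream window, and 32.7% of all windows held it. CCAAT, also searched on both strands, was absent from the upstream window and occurred 3 times in the downstream window, against 33.8% of all windows with at least 1 match. Neither window held TATAAA, which 12.4% of all windows held, or a CArG box, which 1.47% held. These motifs do not overlap one another here, and a match describes letters and not a bound site. The third Gsn window, ahead of a RefSeq start at chr2:35266744, lay 10295 bases from the nearest GENCODE start of the gene.

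The qPCR primers that the study used for Gsn are printed 5′ to 3′, since they bear on which Gsn transcripts a measurement covers.
Gsn forward primer: atggctccgtaccgctctt
Gsn reverse primer: gcctcagacacccgacttt
The forward primer lay at chr2:35282464-35282482 and began on the first base of the annotated start codon of Gsn-201. The reverse primer lay at chr2:35282579-35282597. Both fell in exon 1 of Gsn-201, and the reverse primer also in exon 1 of the retained intron transcript Gsn-202. Exon 1 of Gsn-201 belongs to the downstream start, whereas the counts described here sum all Gsn transcripts.

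Before the members are described, 3 libraries that stood apart have to be named. Library totals ranged from 24095322 to 30819118 counts, and a count of 3, taken as the floor, corresponded to 0.0968 to 0.126 CPM (read counts scaled to a common library size with TMM normalisation). The duct label was checked against its markers. The 8 Kölliker's organ markers summed to 3529 to 4384 CPM in WT, 3290 to 4114 CPM in heterozygote and 1762 to 2057 CPM in null libraries, so the labelled tissue was present in all 9. The library labelled Null 3 was the highest of the 9 for 5 of 5 cartilage markers, which summed to 12432 CPM against 5154 to 6184 CPM elsewhere, and for 7 of 11 mesenchyme markers, which summed to 2254 CPM. WT 1 and WT 2 carried more mesenchyme marker RNA than WT 3 (1289, 1770 and 730 CPM), while heterozygotes ranged from 635 to 727 CPM and the remaining null libraries from 559 to 698 CPM. Of these sums, Lum alone held 693, 687 and 610 CPM in WT 1 to 3 and 526 to 655 CPM in heterozygotes. The sum therefore understates how far WT 1 and WT 2 exceeded WT 3 in the rest of the list. Endothelial markers summed to 88.2, 73.0 and 5.02 CPM in WT 1 to 3, 6.02 to 8.92 CPM in heterozygotes and 4.48 to 52.0 CPM in null libraries. Markers of 3 further cell types were lower in every heterozygote than in every WT library: melanocytes (55.2 to 132.0 CPM in WT, 20.5 to 40.4 in heterozygotes and 12.2 to 42.9 in null libraries), red cells (67.5 to 191, 25.1 to 46.5 and 54.1 to 98.7 CPM) and macrophages (3.93 to 18.1, 2.34 to 3.61 and 3.06 to 10.5 CPM). Markers of other duct epithelium summed higher in every null than in every WT library: prosensory domain (825 to 899 CPM in WT, 1039 to 1050 in heterozygotes and 1073 to 1317 in null libraries), roof (8051 to 9441, 9647 to 10189 and 10885 to 14254 CPM) and outer sulcus (1233 to 1410, 1302 to 1566 and 1449 to 2032 CPM). Prdm16 RNA followed the labels, at 184 to 225 CPM in WT, 123 to 151 CPM in heterozygotes and 19.1 to 27.4 CPM in null libraries. In bulk RNA, fewer cells of a type and less RNA per cell cannot be told apart.

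Gsn RNA fell with each copy of the gene trap allele, and it was the 1 member called in every comparison. WT libraries 1 to 3 held 233, 219 and 172 CPM of Gsn. The heterozygote libraries held 121, 102 and 115 CPM. The null libraries held 36.9, 41.0 and 60.8 CPM. The 3 genotypes did not overlap, and the lowest WT library stood above the highest heterozygote, while the lowest heterozygote stood above every null library. Of all genes tested, 8.95% were lower without overlap in null than in WT embryos, 8.99% in heterozygotes than in WT and 9.09% in null embryos than in heterozygotes. Counts behind these values ran from 895 to 6302 reads, so sampling error was small beside the spread between embryos.

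**Figure D1:**
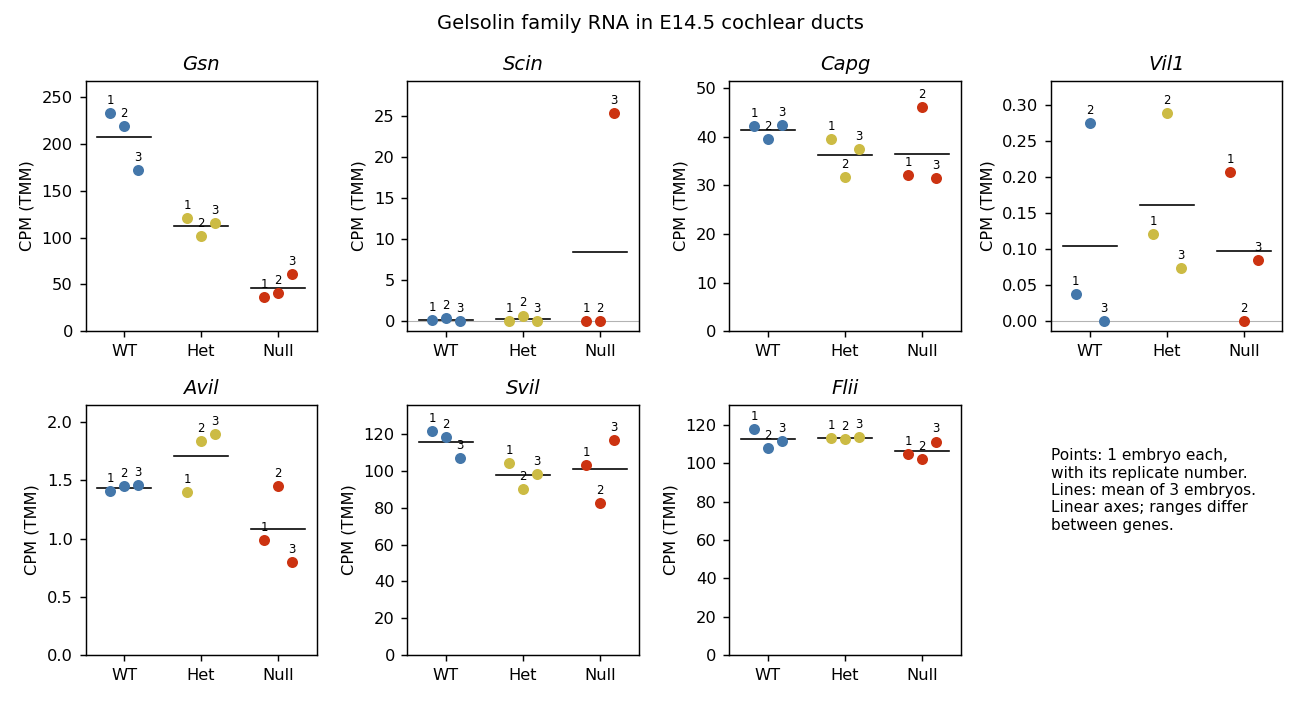
TMM-normalised CPM (linear y axes, each with its own range) of the 7 gelsolin family genes in WT, heterozygote (Het) and null cochlear ducts, with 1 numbered point per embryo and a line at the mean of 3 embryos. Gsn falls in steps without overlap, Scin is raised in library Null 3 alone, while the genotypes overlap in null against WT for Capg, Avil, Svil and Flii.

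The mean Gsn level was 208.0 ± 32.2 CPM in WT, 112.7 ± 9.60 CPM in heterozygotes and 46.3 ± 12.8 CPM in null embryos (SD, n = 3 each). Heterozygotes retained 54.2% of the WT mean and null embryos 22.2%. Genes were called at a Benjamini-Hochberg adjusted p under 0.05 in edgeR's quasi-likelihood test over all genes together with an absolute log2 fold change over 0.5. In null against WT, 1.71% of 17168 genes tested were called in either direction, and 1 of the 5 members tested was called, Gsn. Its log2 fold change was -2.17 (standard error 0.201, 95% interval -2.64 to -1.71, edgeR adjusted p = 0.00316). In heterozygote against WT, 0.151% of 17269 genes were called, and Gsn, again the called member, changed by -0.88 (standard error 0.105, 95% interval -1.12 to -0.65, edgeR adjusted p = 0.0171). In null against heterozygote, 0.615% of 17067 genes were called, and Gsn changed by -1.29 (standard error 0.181, 95% interval -1.70 to -0.87, edgeR adjusted p = 0.0269). These 3 comparisons share libraries, so they are not independent of each other.

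The 3 Gsn differences did not rest equally firmly on the libraries. In null against WT, Gsn was called in 6 of 6 fits that left out 1 library each, with log2 fold changes from -2.42 to -2.04, and it stood at -2.14 without WT 1, WT 2 and Null 3 (chosen after the data were seen). In heterozygote against WT it was called in 3 of 6 such fits, and was lost without WT 2 (adjusted p = 0.0892), Het 2 (0.119) or Het 3 (0.170). That call was also lost with all 9 libraries in 1 fit (log2 fold change -0.88, edgeR adjusted p = 0.352). Within the WT group, Gsn was higher in WT 1 and WT 2, the libraries with more mesenchyme marker RNA, than in WT 3. Kölliker's organ markers, at 4384, 3877 and 3529 CPM in WT 1 to 3, ran in the same order as Gsn. They also did so in the heterozygotes (4114, 3290 and 3701 CPM), but ran in the opposite order in the null libraries (2057, 1944 and 1762 CPM). The part of Kölliker's organ RNA in this spread was not tested. With the mesenchyme marker level as a covariate the heterozygote value moved to -0.63 (edgeR adjusted p = 0.164), and without WT 1 and WT 2 together it was -0.61 (edgeR adjusted p = 0.00663), a fit in which WT 3 is assumed to vary like the heterozygotes. Melanocyte, red cell and macrophage marker RNA was also lower in the heterozygotes than in WT, as given above, while prosensory and roof marker RNA was higher, and the part of these cell types in the Gsn differences was not tested. In null against heterozygote, Gsn was called in 1 of 6 fits, the one without Null 3 (log2 fold change -1.53, adjusted p = 4.62e-04), and the adjusted p of the remaining 5 reached up to 0.154. Null 3 held the highest Gsn of the 3 null libraries.

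**Figure D2:**
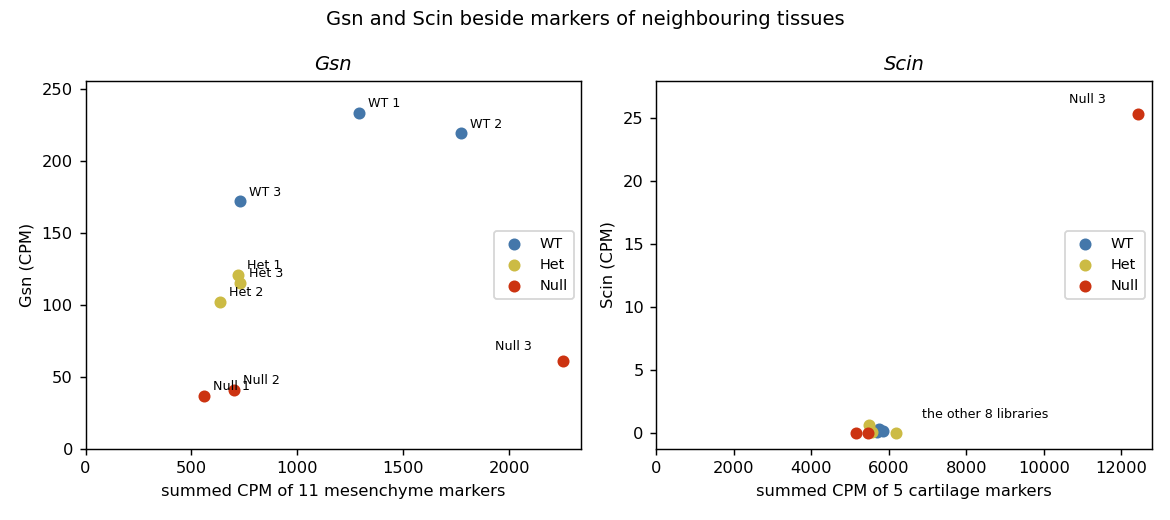
Left, Gsn CPM of each library against the summed CPM of 11 mesenchyme markers. Right, Scin CPM against the summed CPM of 5 cartilage markers. Points are single embryos coloured by genotype, on linear axes. WT 3 lies close to the heterozygotes in the mesenchyme sum (730 CPM against 635 to 727 CPM) and above them in Gsn. Lum alone makes up 610 CPM of that sum in WT 3 and 526 to 655 CPM in the heterozygotes. Null 3 is the single library that is high for both Scin and cartilage markers.

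Whether the heterozygote level lay off the middle of WT and null was tested on the log2 scale in 1 fit of all 9 libraries, in which 0.0112% of 17797 genes passed the adjusted p threshold. Gsn lay 0.20 above that midpoint (standard error 0.149, 95% interval -0.13 to 0.53, edgeR adjusted p = 0.740), a departure within the spread of the embryos. The same departure was -0.10 for Capg, 0.46 for Avil, -0.15 for Svil and 0.05 for Flii, with none of the 5 past the threshold. Leaving out 1 library at a time, the Gsn departure ran from 0.13 without Null 1 to 0.32 without Null 3, and that of Capg from -0.17 without Het 1 to -0.0030 without Null 2, with -0.017 without Het 2. That of Svil ran from -0.21 without Null 2 to -0.086 without Null 3, with -0.094 without Het 2.

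The Kölliker's organ markers, a list that earlier work on these samples helped to pick, give a scale for the fall of Gsn. Null embryos retained between 14.6% (1500015O10Rik) and 67.3% (Fgf10) of the WT mean of these 8 genes, so the 22.2% retained by Gsn lay within their range. Heterozygotes retained between 69.9% (Efhd1) and 97.4% (Tecta) of the WT mean of the same genes, all above the 54.2% of Gsn. The difference between Gsn and these markers was not tested.

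By the Pearson correlation of log2 CPM over the 9 libraries, the genes outside the lists with the pattern most like Gsn among 17797 genes were Gpm6a (r = 0.991), Scn9a (0.985), Eml1 (0.982), Cpxm2 (0.981) and Gucy1b1 (0.978). These values describe libraries that share genotype and tissue make-up. Gpm6a encodes a neuronal membrane glycoprotein and averaged 10.1, 7.48 and 4.88 CPM in WT, heterozygotes and null embryos. Scn9a, a voltage-gated sodium channel subunit, averaged 4.16, 1.82 and 0.358 CPM in the same order. Its null libraries held 3, 10 and 15 counts, the lowest at the floor. Gucy1b1, a subunit of soluble guanylate cyclase, averaged 12.9, 8.56 and 2.34 CPM. Eml1 (55.5, 47.1 and 39.7 CPM) and Cpxm2 (184, 156 and 116 CPM) fell less steeply than Gsn.

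Levels of different genes were compared per kilobase of merged exon length. In WT ducts Gsn came first, at 65.9 ± 10.2 CPM per kb (SD, n = 3), ahead of Flii at 22.3, Capg at 16.4 and Svil at 10.8 CPM per kb. Each of these 4 was separated from the next by ranges that did not overlap. Avil stood far below at 0.423 CPM per kb, and Scin (0.0510) and Vil1 (0.0292) had overlapping ranges at the bottom. In heterozygotes Gsn was still first at 35.7 ± 3.04 CPM per kb, and Flii, at 22.5, did not overlap it. In null embryos the order changed: Flii came first at 21.1 ± 0.932 CPM per kb, and Gsn, at 14.7 ± 4.05, overlapped with Capg at 14.4 ± 3.26.

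As a share of the family's summed CPM per kb, Gsn made up 58.7%, 58.7% and 52.4% in the WT libraries, 44.2%, 42.3% and 43.6% in the heterozygotes and 21.2%, 21.8% and 26.2% in the null libraries. The family's sum averaged 115.9 CPM per kb in WT, 82.3 in heterozygotes and 62.8 in null embryos. Flii rose as a share from 19.4% to 34.0% between the WT and null means and Capg from 14.2% to 23.5%, while their own levels, described next, did not pass the test. A share of this kind rises for every other member when 1 member falls.

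**Figure D3:**
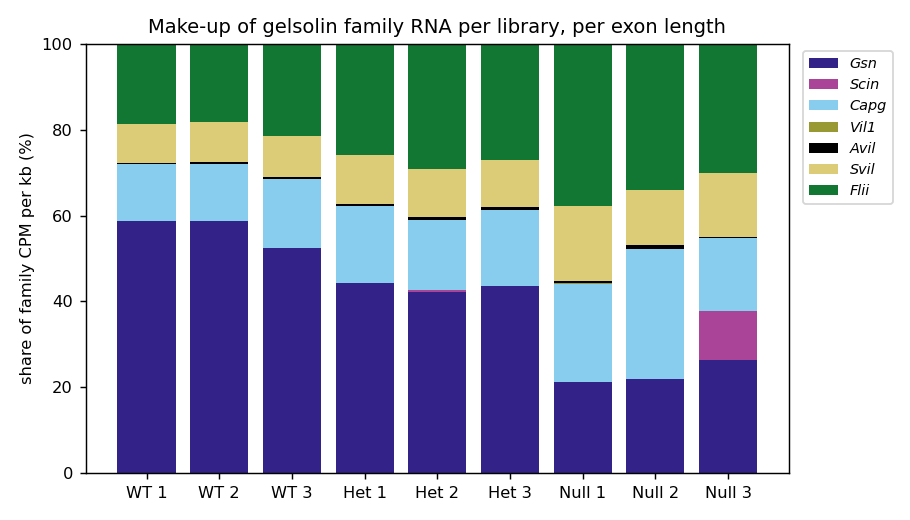
Share of each gelsolin family gene in the family's summed CPM per kb of exon (%, y axis from 0 to 100) in each of the 9 libraries. Gsn falls from over 52% in every WT library to 26.2% or less in the null libraries, and Scin takes 11.5% in Null 3.

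Flii encodes flightless I, which joins gelsolin repeats to leucine-rich repeats and acts in actin remodelling and as a transcriptional coactivator. Flii held 118, 108 and 112 CPM in WT, 113, 113 and 114 CPM in heterozygotes and 105, 102 and 111 CPM in null libraries. Over all libraries together these were the steadiest levels of the family, and the null libraries overlapped with WT. The log2 fold change of null against WT was -0.09 (95% interval -0.25 to 0.08, edgeR adjusted p = 0.683), with -0.048 without WT 1 and -0.053 without Null 2. Null libraries lay below heterozygotes without overlap, as was so for 9.09% of all genes tested. The log2 difference was -0.09 (edgeR adjusted p = 0.634). Flii lies at chr11:60714123-60727263 on the minus strand and shares 64 exon bases, or 1.27% of its exon length, with Llgl1 on the opposite strand. The use of strand in counting is not given in the sources used here.

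Svil encodes supervillin, a large membrane-associated member that binds actin and myosin II without the severing activity of gelsolin. Its levels were 122, 119 and 107 CPM in WT, 104, 90.3 and 98.5 CPM in heterozygotes and 103, 82.6 and 117 CPM in null libraries. All 3 heterozygote libraries lay below the lowest WT library, as was so for 8.99% of all genes tested. The log2 fold change was -0.25 (standard error 0.0653, 95% interval -0.39 to -0.10), and the edgeR adjusted p over all genes was 0.132. The adjusted p was 0.0259 with DESeq2, 7.29e-04 without a filter and 0.0198 without WT 3 (log2 fold change -0.30), against 0.0901 to 0.804 in the other fits of all libraries, and no fit reached the fold threshold of 0.5. Without WT 1 and WT 2 the value was -0.13 (adjusted p = 0.719). Null libraries overlapped with WT and differed by -0.20 on the log2 scale (95% interval -0.50 to 0.09, edgeR adjusted p = 0.583), a value that moved to -0.32 without Null 3 and to -0.073 without Null 2. With the mesenchyme marker covariate the null value was -0.11 and the heterozygote value -0.16, neither past the test. Null 3 held the highest and Null 2 the lowest Svil of the null group. Svil lies at chr18:4920540-5119299 on the plus strand.

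Capg encodes the macrophage-capping protein, which caps filament ends but does not sever. Its RNA was at 42.3, 39.6 and 42.4 CPM in WT, 39.6, 31.7 and 37.5 CPM in heterozygotes and 32.1, 46.0 and 31.4 CPM in null libraries. The highest and the lowest Capg of the 9 libraries were both null, so the genotypes overlapped. The log2 fold change was -0.18 in null against WT (95% interval -0.54 to 0.17, edgeR adjusted p = 0.693) and -0.19 in heterozygote against WT (95% interval -0.39 to 0.0040, edgeR adjusted p = 0.390). The null value was -0.38 without Null 2 (adjusted p = 0.103), -0.098 without Null 1 and -0.084 without Null 3, and the heterozygote value -0.11 to -0.26 on leaving out 1 library. With the mesenchyme marker covariate the null value was -0.29 and the heterozygote value -0.31, neither past the test. Without the 3 libraries that stand apart the null value was -0.11. The 8 macrophage markers summed to at most 18.1 CPM in any library. Capg lies at chr6:72544391-72562983 on the plus strand.

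Avil encodes advillin, which is best known from sensory neurons. It was counted 38, 37 and 43 times in WT, 35, 51 and 52 times in heterozygotes and 24, 45 and 19 times in null libraries, or 0.796 to 1.90 CPM. Null 1 and Null 3 lay below every WT library and Null 2 did not. The log2 fold change was -0.41 in null against WT (95% interval -1.11 to 0.29, edgeR adjusted p = 0.653), 0.25 in heterozygote against WT (adjusted p = 0.703) and -0.66 in null against heterozygote (95% interval -1.37 to 0.05, adjusted p = 0.463). Leaving out Null 2 moved the null against WT value to -0.68 and leaving out Null 3 to -0.23, neither past the test. At this depth the intervals in both comparisons with null embryos hold a log2 change past -1. Avil lies at chr10:127000709-127020994 on the plus strand and shares 165 exon bases (4.86% of its exon length) with Tsfm on the opposite strand, which was counted 448 to 698 times.

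**Figure D4:**
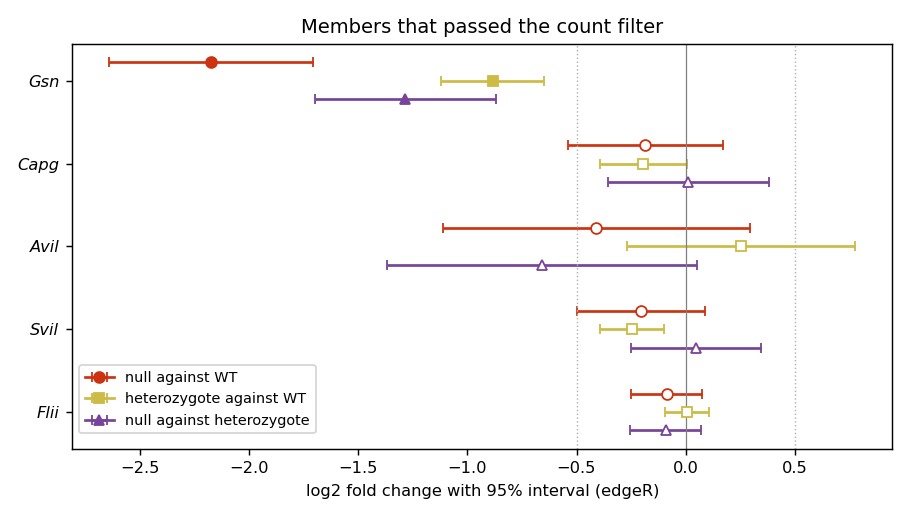
edgeR log2 fold changes (x axis) with 95% intervals for the 5 members that passed the count filter, in null against WT, heterozygote against WT and null against heterozygote. Filled symbols passed the adjusted p and fold thresholds, and dotted lines mark a log2 fold change of 0.5 in either direction. The 3 Gsn values are the filled ones, and the Avil intervals are the widest.

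Scin and Vil1 did not pass the filter on low counts in any comparison, and without that filter neither passed the test. For Vil1 the fitted fold changes rest on counts around the floor. For Scin, those of the comparisons with null embryos rest on the single library Null 3. The Scin value of heterozygote against WT rests on 1 heterozygote library with 18 counts, against 8 or fewer in each WT library. The fitted fold changes of Vil1 and Scin are therefore not given. The edgeR adjusted p without the filter was 0.1004 for Scin and 0.999 for Vil1 in null against WT, and 0.0659 for Scin in null against heterozygote. Scin encodes scinderin (adseverin), a calcium-dependent severing protein that secretory cells and chondrocytes use. It was counted 3, 8 and 1 times in WT, 0, 18 and 1 times in heterozygotes and 0, 0 and 605 times in null libraries. The 605 counts of Null 3 amounted to 25.3 CPM, against 0.648 CPM in the next highest library, and 5 of the 9 libraries held 1 count or none. The null libraries thus do not share a Scin level. Null 3 was also the library with the cartilage RNA: aggrecan (Acan) stood at 501 CPM there against 1.02 to 7.02 CPM in the other 8 libraries, and matrilin 1 (Matn1) at 390 CPM against 5.17 to 13.6 CPM. The part of cartilage RNA in the Scin value was not tested. Without Null 3, no library exceeded 18 counts. Scin lies at chr12:40059769-40134228 on the minus strand.

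Vil1 encodes villin, the microvillar severing and bundling protein of gut and kidney epithelium. It was counted 1, 7 and 0 times in WT, 3, 8 and 2 times in heterozygotes and 5, 0 and 2 times in null libraries. The 9 libraries thus held 8 counts or fewer, around the floor, and no difference between genotypes was detectable at this depth. Vil1 lies at chr1:74409376-74435559 on the plus strand and shares 49 exon bases with Usp37 on the opposite strand, itself counted 1758 to 2320 times.

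Villin-like (Vill), a relative outside the 7 genes that was chosen for its kinship with villin after its values were seen, was expressed in the duct. Its mean was 35.9 ± 1.60 CPM in WT, 35.02 ± 1.90 CPM in heterozygotes and 30.6 ± 2.74 CPM in null embryos (SD, n = 3). Per kilobase of exon its WT mean was 8.14 CPM, which the family sums and shares leave out. The null libraries all lay below WT, as was so for 8.95% of all genes tested. The log2 difference of -0.24 did not pass the test (edgeR adjusted p = 0.403).

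Other actin regulators were listed by function: relatives of villin, actin isoforms, cofilins and turnover factors, filament end capping, monomer binding and bundling. Of these 72 genes, 65 were tested in null against WT, where 1 was called higher and 1 lower and the median log2 fold change was -0.03. Over all genes tested in that comparison 0.92% were called higher and 0.786% lower. An unadjusted p under 0.05 was found for 21 of the 65, against 12.2% of all genes tested. In heterozygote against WT and in null against heterozygote, none of the 64 and 63 genes tested was called by edgeR, where 19 and 15 of them had an unadjusted p under 0.05, against 13.1% and 11.4% of all genes. DESeq2 called 6 listed genes in null against WT (Eps8 higher, and Pls1, Lcp1, Coro2a, Add2 and Acta2 lower), where it called 333 of all genes higher and 285 lower. It called 3 in heterozygote against WT (Lcp1, Add2 and Tmsb4x, all lower), beside 48 of all genes higher and 270 lower. It called 2 in null against heterozygote (Eps8 and Fscn1, both higher), beside 196 of all genes higher and 161 lower. DESeq2 was run on all genes with any count in the libraries compared, so its totals are not shares of the genes edgeR tested. The abundant severing factors of the cofilin group changed little: cofilin 1 (Cfl1) moved by -0.03 and destrin (Dstn) by 0.09 on the log2 scale, neither past the test. Among the actins, the cytoplasmic beta-actin Actb changed by 0.01, whereas the gamma-actin Actg1, whose near-identical copies can share its reads, averaged 70.2 CPM in WT and 28.0 CPM in null embryos (log2 fold change -1.34, edgeR adjusted p = 0.244). Acta2, the smooth muscle actin, had the most negative value of the listed genes at -3.42 (edgeR adjusted p = 0.0681), from means of 1.40 and 0.130 CPM. The null mean lay close to the floor of 0.0968 to 0.126 CPM, so the size of this fall is poorly measured. The 2 most abundant genes of the capping list, Add1 and Capzb, changed by 0.01 and 0.08. Of those that bind monomers, the profilin Pfn1 changed by 0.06 and thymosin beta 4 (Tmsb4x) by -0.44, from 202 to 149 CPM (edgeR adjusted p = 0.429). Of the bundling genes, Actn4 changed by -0.25 (adjusted p = 0.293) and Fscn1 by 0.50 (adjusted p = 0.246), and of the villin relatives Dmtn by -0.32 (adjusted p = 0.229) and Ablim1 by 0.34 (adjusted p = 0.315).

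The gene called higher was Eps8, an actin capping and bundling protein of stereocilia tips. Eps8 held 42.4, 44.9 and 40.4 CPM in WT, 45.1, 45.3 and 47.2 CPM in heterozygotes and 70.6, 66.7 and 58.2 CPM in null libraries. Prosensory, roof and outer sulcus marker RNA was also higher in the null than in the WT libraries, as given above, and its part in the Eps8 value was not tested. Null libraries lay above all others (10.1% of all genes tested were higher without overlap in null than in WT embryos), and Eps8 rose by 0.61 on the log2 scale (standard error 0.0984, edgeR adjusted p = 0.0251). The gene called lower was Pls1, the plastin of microvilli and stereocilia that bundles filaments. Pls1 held 131, 135 and 131 CPM in WT, 126, 125 and 129 CPM in heterozygotes and 101, 89.3 and 82.1 CPM in null libraries. Pls1 fell by 0.55 on the log2 scale (standard error 0.0878, edgeR adjusted p = 0.0247). Kölliker's organ and melanocyte marker RNA was also lower in the null than in the WT libraries, as given above. Its part in the Pls1 value was not tested. Eps8 and Pls1 were each called in 1 of 6 fits that left out a library, with adjusted p up to 0.137 and 0.163, while their log2 fold changes ran from 0.55 to 0.69 and from -0.63 to -0.48. Without Null 3, Pls1 had an adjusted p of 0.0339 and missed the fold threshold at -0.48. The fit without WT 1, WT 2 and Null 3 sets WT 3 alone against Null 1 and Null 2, so its spread comes from 2 null libraries and is assumed to hold for WT. In it Eps8 stood at 0.77 and Pls1 at -0.46, neither called, and 4 listed genes were called lower (Coro2a, Acta2, Espnl and Actg1) beside 180 of all genes lower and 112 higher.

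**Figure D5:**
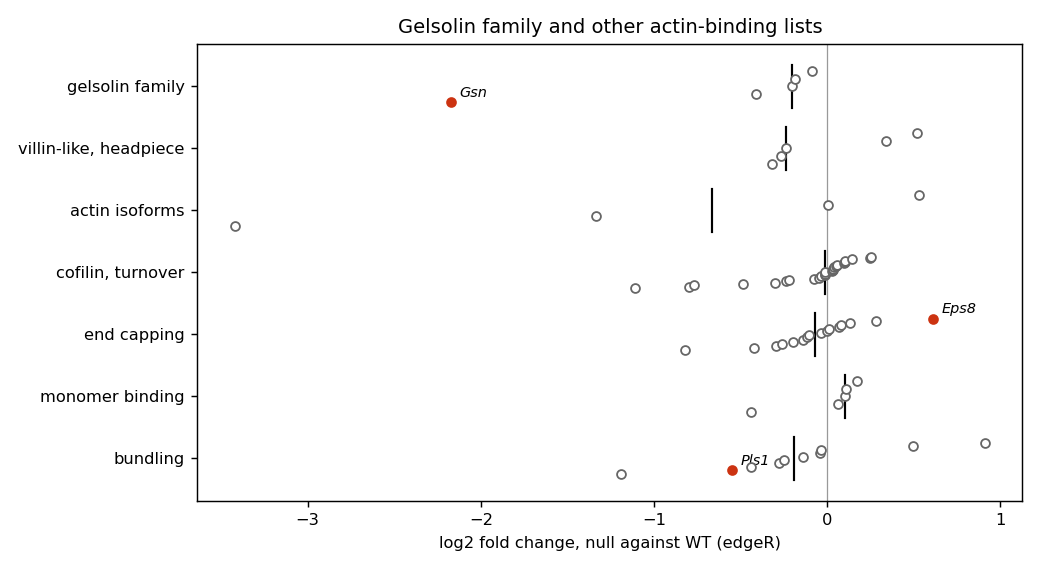
edgeR log2 fold changes of null against WT (x axis) for tested genes of the gelsolin family and of 6 lists of other actin regulators. Each circle is 1 gene, filled red circles passed both thresholds, and the vertical bars are list medians. Gsn, Eps8 and Pls1 are the called genes.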

How the data were processed

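Cochlear duct RNA of 9 embryos was sequenced as single reads of TruSeq mRNA libraries. The submitters' notes name cutadapt 1.13, STAR, HTSeq 0.6.1p1, DESeq2 and mm10, and the strand setting and annotation release are not given in the sources used here. The authors deposited 1 table per library, with whole-number read counts by Ensembl gene identifier that had not been normalised. All 37 mitochondrial genes hold 0 counts. GENCODE vM21 (GRCm38) named 54165 of 54232 genes and gave positions and exon lengths.

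Samples were grouped by labelled genotype. Genotypes were compared in pairs, on 6 libraries at a time, with edgeR 4.0.16 in R 4.3.3 (TMM, filterByExpr with a minimum count of 10, quasi-likelihood test, Benjamini-Hochberg adjustment over all genes tested). Log2 CPM used a prior count of 2. Calls needed a log2 fold change past 0.5 in either direction at an adjusted p under 0.05. Alternatives were DESeq2 1.42.0, RLE or plain CPM, other filters, all 9 libraries in 1 fit, a replicate block, a mesenchyme marker covariate, leaving out each library, and, added after the data were seen, leaving out the 3 libraries that stand apart. The procedure was tested on simulated data. Libraries of 1 genotype differed by more than sampling noise (chi-square per gene 5.31 or more). The floor and totals cover counting error only.

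The members and gene lists were chosen with earlier results of these data known. All 7 members are named, and of other actin genes those called by edgeR with its filter, by DESeq2 or without the 3 libraries that stand apart, at most the 2 most abundant per list, and Vill, which falls outside this rule. Motifs were searched on both strands of the 250 bases before each RefSeq start.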

Additional observations from a re-analysis of the deposited data

How the results depend on the processing

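The fall of Gsn in null against WT kept its direction and call under every alternative run. In heterozygote against WT it lost its call with all 9 libraries in 1 fit (log2 fold change -0.88, edgeR adjusted p = 0.352) and with the mesenchyme marker covariate (-0.63, adjusted p = 0.164), so 0 members were called there. Leaving out 1 library gave -1.005 to -0.79 in heterozygote against WT and -1.53 to -1.15 in null against heterozygote, with 0 to 1 members called in each. The cause was not tested. Small values changed sign without passing a test: Flii in heterozygote against WT (-0.020, without WT 2, to 0.043 on leaving out 1 library), Capg in null against heterozygote (-0.19 to 0.11, and -0.0052 under the replicate block, -0.074 without Het 2), and Svil in null against heterozygote (-0.074 to 0.17, -0.0077 without Het 2, -0.035 with the mesenchyme covariate and -0.074 without the 3 libraries that stand apart).

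Counts of all genes called moved more, and the cause was not tested. In null against WT, 135 genes lower and 158 higher became 285 and 333 with DESeq2, 209 and 267 without a filter, 208 and 260 with all 9 libraries and 68 and 65 under the replicate block, with 246 higher under the covariate. Leaving out 1 library gave 37 to 232 lower and 31 to 214 higher. In heterozygote against WT, 17 lower and 9 higher became 270 and 48 with DESeq2, 575 and 109 without a filter, 6 and 4 with a mean count of at least 50, 0 and 0 with all 9 libraries, 165 and 32 under the replicate block, 8 and 2 with the covariate and 49 and 34 without the 3 libraries, with 0 to 458 and 0 to 47 on leaving out 1. In null against heterozygote, 55 lower and 50 higher became 161 and 196 with DESeq2, 139 and 227 without a filter, 85 and 79 with all 9 libraries, 30 and 22 under the replicate block, 138 and 124 with the covariate and 101 and 81 without the 3 libraries, with 6 to 101 and 5 to 81 on leaving out 1. The other actin regulators called numbered 0 to 6, 0 to 8 and 0 to 2 over all settings in these 3 comparisons.

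Samples of different genotypes share only a number: 3 of 9 same-numbered pairs had correlated deviations over 0.1 (mean correlation -0.0068, highest 0.202). Differently numbered pairs reached up to 0.349, for WT 2 with Null 3. Under the replicate block Gsn remained called, at -2.20 in null against WT (adjusted p = 0.0286) and -1.31 in null against heterozygote (adjusted p = 0.0382), while Eps8 and Pls1 were not, at nearly the same log2 fold changes (0.61 and -0.55, adjusted p = 0.0695 and 0.0809). With 3 embryos per genotype and few counts, differences in Scin, Vil1 and Avil are the least constrained.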
